A study of Mus musculus with 71 samples.

Results

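The genes described here are 33 genes that mark the medium spiny neurons of the striatum, the GABAergic projection neurons that make up most of the neurons of the nucleus accumbens (NAc). They were chosen by name, as known markers, signaling proteins and transcription factors of these neurons. The rule used no measured value, but the choice was made with earlier results of these data known. All 33 were found among the 37681 genes of the tables.

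Medium spiny neurons receive glutamate from cortex, hippocampus, amygdala and thalamus and dopamine from the ventral tegmental area (VTA). They fall into direct-pathway neurons, which carry the D1-type dopamine receptor, and indirect-pathway neurons, which carry the D2-type dopamine receptor and the adenosine receptor encoded by Adora2a. The G protein alpha subunit encoded by Gnal couples the D1-type receptor in direct-pathway neurons and the adenosine receptor in indirect-pathway neurons to adenylyl cyclase, which the D2-type receptor inhibits through other G proteins. The resulting cAMP drives protein kinase A, whose targets include the phosphatase inhibitor encoded by Ppp1r1b. Phosphodiesterases end the cAMP signal, and a set of transcription factors (Bcl11b, Foxp1, Isl1 and others) sets up and maintains the identity of these cells.

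RNA-seq was available from the NAc, the VTA and the prefrontal cortex (PFC) of wild type C57BL/6 mice (by the study's methods C57BL/6J, of both sexes and 8 weeks old) that had self-administered cocaine (0.7 mg/kg per infusion) or saline intravenously in 2 h sessions on 21 consecutive days, after food training. Tissue was taken after 1 day or 28 days of abstinence, from punches 2 mm wide by the study's self-administration methods. The 71 libraries fall into 12 groups of 6, except saline VTA at 28 days with 5. Saline mice had the same catheter, food training and sessions as cocaine mice, a punch holds all cells of the region, and it was not stated whether a library came from 1 mouse or from pooled mice, so that p-values measure the spread between libraries. In such tissue, fewer medium spiny neurons and less RNA per neuron cannot be told apart. Between 20971967 and 49700932 reads on genes were counted per library. At 1 day libraries are named by the replicate number of their label. The numbers used at 28 days are the column numbers within a group, since those columns could be tied to a group but not to an animal.

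Levels are given as reads per kilobase of gene length, scaled to the reads on genes in each library (RPKM), so that genes can be compared with each other, and differences as log2 fold changes with a standard error (SE). A gene was called when its adjusted p (Benjamini-Hochberg, over all genes tested in that comparison) was under 0.05, in edgeR's quasi-likelihood test for tables of counts and in limma for the VTA and PFC tables at 1 day, which hold RPKM.

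In the NAc of saline mice at 28 days, Ppp1r1b had the highest level of the 33 genes and Ebf1 the lowest. Ppp1r1b (ENSMUSG00000061718, mm9 chr11:98209718-98219110, plus strand), the cAMP-regulated inhibitor of protein phosphatase 1, was at 771, 970.1 and 1362 RPKM (lowest, median and highest of 6 libraries). Hpca, a neuronal calcium sensor, had a mean of 735 RPKM, Gng7, the gamma subunit paired with Gnal, 525, and Pde1b, a calcium-dependent phosphodiesterase, 391. Exons of Ppp1r1b overlap a noncoding RNA on the other strand over 15.7% of their bases, and it was not stated whether reads were counted by strand, so that a part of its reads cannot be assigned.

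The cAMP pathway members followed. Arpp21, a cAMP-regulated phosphoprotein, had a mean of 293 RPKM, the adenylyl cyclase gene Adcy5 249, the tyrosine phosphatase gene Ptpn5 236, Pde10a, the phosphodiesterase most typical of these neurons, 179.5, and Gnal 174. Pde7b, a cAMP-specific phosphodiesterase, was lower at 58.9 RPKM. Among the regulators of small and trimeric G proteins, Rasd2 (a Ras-like protein) had a mean of 249 RPKM, Ngef (a guanine nucleotide exchange factor) 208, Rgs9 (which speeds GTP hydrolysis by inhibitory G proteins) 140.2 and Rasgrp2 (an exchange factor for Rap proteins) 22.4.

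Receptors and transcription factors were lower. Adora2a had a mean of 132 RPKM, Gpr6, a receptor of indirect-pathway neurons that raises cAMP, 50.2, and Cd4, better known as the coreceptor of helper T cells, 26.8. The transcription factors were between 2.03 RPKM for Ebf1 and 88.5 RPKM for Meis2, a homeobox gene. Isl1, a LIM homeobox gene of direct-pathway neurons, was at 5.49 RPKM and Six3, a homeobox gene of indirect-pathway neurons, at 9.27. Of the other members, the calcium release channel gene Itpr1 had a mean of 123 RPKM, the kinase gene Dclk3 60.5, the membrane protein gene Tmem158 83.8, the anoctamin gene Ano3 38.9, the alpha-actinin gene Actn2 31.4, the ubiquitin ligase gene Sh3rf2 10.8 and Ido1, which encodes an enzyme of tryptophan breakdown, 8.85.

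**Figure D1:**
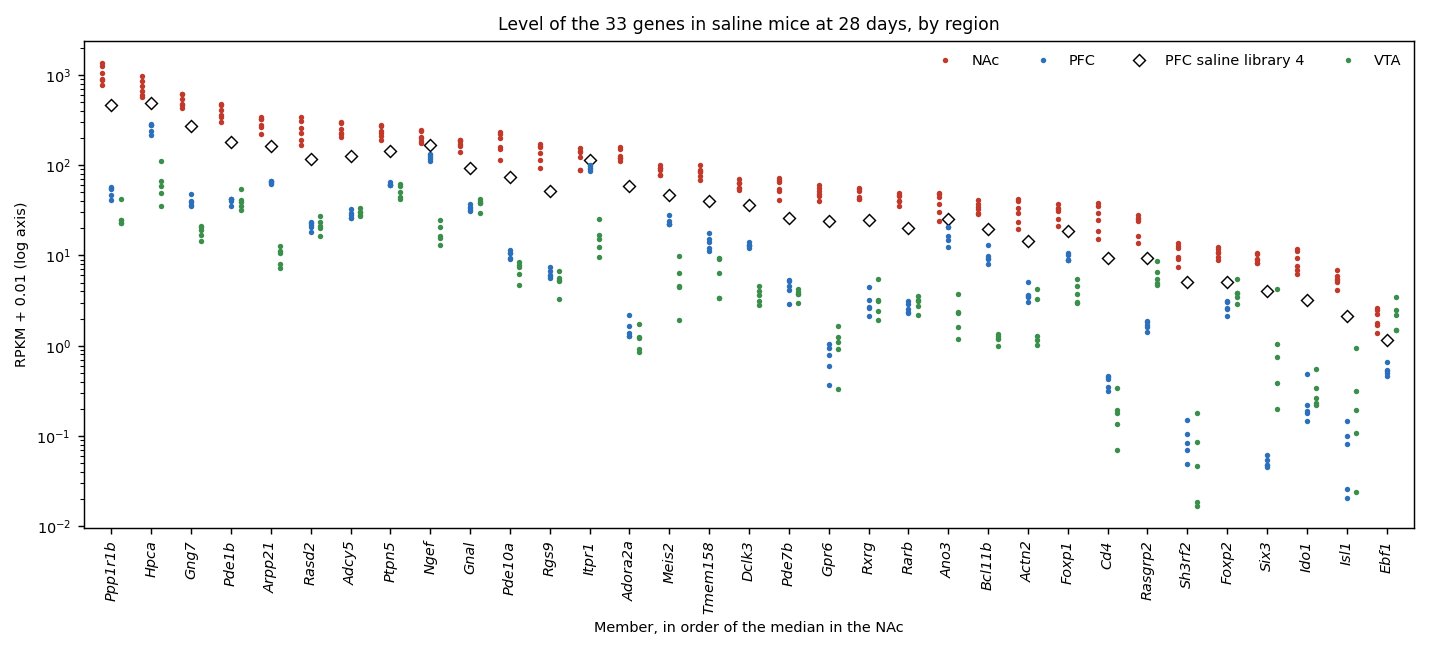
Level of each of the 33 genes (RPKM + 0.01, log axis) in the saline libraries at 28 days, with 1 point for each library of the NAc (6), PFC (6) and VTA (5). The NAc points lie on top for most genes, Ebf1 and Itpr1 are the exceptions against the VTA and the PFC, and PFC library 4 (open diamonds) lies between the other PFC libraries and the NAc.

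In a fit over the 17 saline libraries at 28 days, 32 of the 33 genes were higher in the NAc than in the VTA, with a median log2 fold change of 4.03 over the members, where 62.5% of 17181 genes tested were called, 29.8% as higher in the NAc, and the median over all genes was -0.03. Against the PFC, 32 of 33 were higher in the NAc as well, with a median of 2.59 (3.26 without PFC library 4), where 40.7% of the genes tested were called, 20% as higher in the NAc, and the median over all genes was 0.02. Region and table are the same thing in this fit, so that a difference between regions and a difference between the tables cannot be told apart. With the 1-day saline libraries or the 28-day cocaine libraries in place of these, 32 members were again higher in the NAc in each comparison. Of all genes tested, 66.0% and 68.5% were then called against the VTA, and 40.9% and 53.4% against the PFC, in either direction.

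The exceptions were a different gene in each region. Ebf1, a transcription factor of direct-pathway neurons, had a mean of 2.03 RPKM in the NAc, and its difference from the VTA was -0.01 on the log2 scale (SE 0.260, adjusted p = 0.974, edgeR). With the 1-day libraries Ebf1 was called lower in the NAc than in the VTA. Itpr1 did not pass the test against the PFC, at 0.31 (SE 0.196, adjusted p = 0.226). In the other PFC saline libraries its median was 94.1 RPKM, against 132 RPKM in the NAc. Itpr1 is known as a gene of cerebellar Purkinje cells and of many forebrain neurons.

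The widest differences from the VTA were those of Sh3rf2, at 7.55 (SE 1.32, adjusted p = 8.09e-05), of Cd4, at 7.33 (SE 1.05, adjusted p = 8.86e-06), and of Adora2a, at 6.91 (SE 1.14, adjusted p = 4.26e-05), in edgeR's test. Ppp1r1b differed by 5.36 (SE 0.661), Bcl11b, a zinc finger factor needed for the maturation of these neurons, by 4.94 (SE 0.231), Rgs9 by 4.86 (SE 0.612) and Pde10a by 4.81 (SE 0.578), all with adjusted p of 2.00e-06 or less. Isl1 (4.29, SE 0.958), Itpr1 (3.07, SE 0.228) and the forkhead gene Foxp1 (3.05, SE 0.235) were called as well.

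Against the PFC without library 4, Six3 differed by 7.77 (SE 0.766), Sh3rf2 by 7.05 (SE 0.423), Isl1 by 6.45 (SE 0.651), Adora2a by 6.41 (SE 0.211), Cd4 by 6.09 (SE 0.317) and Gpr6 by 6.05 (SE 0.315) on the log2 scale. The transcription factors Bcl11b, at 1.76 (SE 0.134), and Foxp1, at 1.66 (SE 0.168), differed less and are known in deep-layer cortical neurons too. With library 4 the differences of Adora2a and Isl1 were 3.53 (SE 0.875) and 3.69 (SE 0.853).

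Between the PFC and the VTA the members did not share a direction. Over all libraries 21 were higher and 1 (Ebf1) lower in the PFC, with a median of 1.63, where 57.8% of the genes tested were called, 28.1% higher and 29.8% lower. Without PFC library 4, 17 were higher and 5 lower (Rasgrp2, Foxp2, Isl1, Ebf1 and Six3), with a median of 0.52. In that fit 57.0% of 17122 genes tested were called in either direction. Isl1 then was at -2.14, against 0.59 with library 4.

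The promoters of 4 members are shown. Gpr6 and Rgs9 are strongly NAc-enriched members, and Rasd2 and Isl1 had, in opposite directions, the smallest unadjusted p-values after cocaine in the NAc at 28 days (given with those results). Each is the 250 bases before the gene's start from RefSeq, on GRCm38.p6, which is not the mm9 build of the tables, 5′ to 3′ along the gene. Capitals mark a full cAMP response element (TGACGTCA) or a GC box (GGGCGG on either strand).
Gpr6 promoter (chr10:41072291-41072540, minus strand): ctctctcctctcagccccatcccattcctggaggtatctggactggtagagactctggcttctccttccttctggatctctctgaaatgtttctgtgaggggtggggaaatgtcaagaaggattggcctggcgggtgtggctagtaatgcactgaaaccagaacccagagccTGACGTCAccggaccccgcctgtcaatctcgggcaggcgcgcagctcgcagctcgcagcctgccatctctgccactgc
Rgs9 promoter (chr11:109298182-109298431, minus strand): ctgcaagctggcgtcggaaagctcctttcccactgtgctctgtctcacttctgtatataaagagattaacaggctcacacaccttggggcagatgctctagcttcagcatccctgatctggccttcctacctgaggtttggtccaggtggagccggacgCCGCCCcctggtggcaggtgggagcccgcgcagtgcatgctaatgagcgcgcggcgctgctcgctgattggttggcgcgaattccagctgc
Rasd2 promoter (chr8:75213694-75213943, plus strand): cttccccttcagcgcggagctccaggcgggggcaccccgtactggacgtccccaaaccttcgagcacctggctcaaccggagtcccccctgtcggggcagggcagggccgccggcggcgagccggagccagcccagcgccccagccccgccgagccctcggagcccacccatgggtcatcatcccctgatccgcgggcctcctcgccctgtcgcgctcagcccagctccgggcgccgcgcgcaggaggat
Isl1 promoter (chr13:116309689-116309938, minus strand): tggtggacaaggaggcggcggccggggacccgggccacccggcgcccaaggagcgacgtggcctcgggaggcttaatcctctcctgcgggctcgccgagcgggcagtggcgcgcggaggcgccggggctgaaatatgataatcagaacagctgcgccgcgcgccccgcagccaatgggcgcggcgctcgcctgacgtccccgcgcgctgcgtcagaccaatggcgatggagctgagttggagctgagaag

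Promoters were at hand for 23 of the 33 members (44 starts) and for 32851 starts in all. TGACGTCA lay in the Gpr6 promoter and in no other member's, so in 2.27% of member starts against 1.55% of all. GGGCGG, searched on both strands like the rest, lay in 31.8% of member starts against 32.7% of all, AGGTCA (a nuclear receptor motif) in 6.82% against 14.0%, TGTTTAC (a forkhead motif) in 4.55% against 3.17%, TGACAG (a motif of the Meis family) in 27.3% against 15.9% and TATAAA in 6.82% against 12.4%. Starts of 1 gene can share bases, and the 12 starts with TGACAG belonged to 7 genes. No promoter was at hand for Ppp1r1b, Adora2a, Cd4, Gnal, Itpr1, Foxp2, Ido1, Sh3rf2, Dclk3 and Tmem158.

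PFC saline library 4 at 28 days stood apart in all members, and it was known to be high in these genes beforehand. Each of the 33 genes was higher there than in every other PFC library of either treatment at 28 days, by a median of 4.46 times the median of the other 5 saline libraries, with a range from 1.22 times for Itpr1 to 105 times for Six3. Ppp1r1b was at 459.6 RPKM there and at a median of 54.6 RPKM in the other 5. Adora2a was at 58.9 RPKM against 1.38, and Gpr6 at 24.1 against 0.778. The share of all genes that were highest in this library was not counted.

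The members were shifted by a similar part of the distance to the NAc. For the 31 members whose NAc median was at least 2 times their PFC median, the library lay between 30.0% (Foxp2) and 49.6% (Gng7) of the way from the median of the other PFC saline libraries to the NAc median, with a median of 42.0%. Rgs9 was at 32.6%, Pde10a at 37.6%, Ppp1r1b at 44.2% and Adora2a at 47.0%. Markers of cortical excitatory neurons summed to 490.0 RPKM there, the lowest of its group, whose median was 733 RPKM. The 19 other striatal projection neuron genes found of a further list summed to 1168 RPKM, where the median of the group was 184 RPKM. Results for the PFC at 28 days are given with and without this library.

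**Figure D2:**
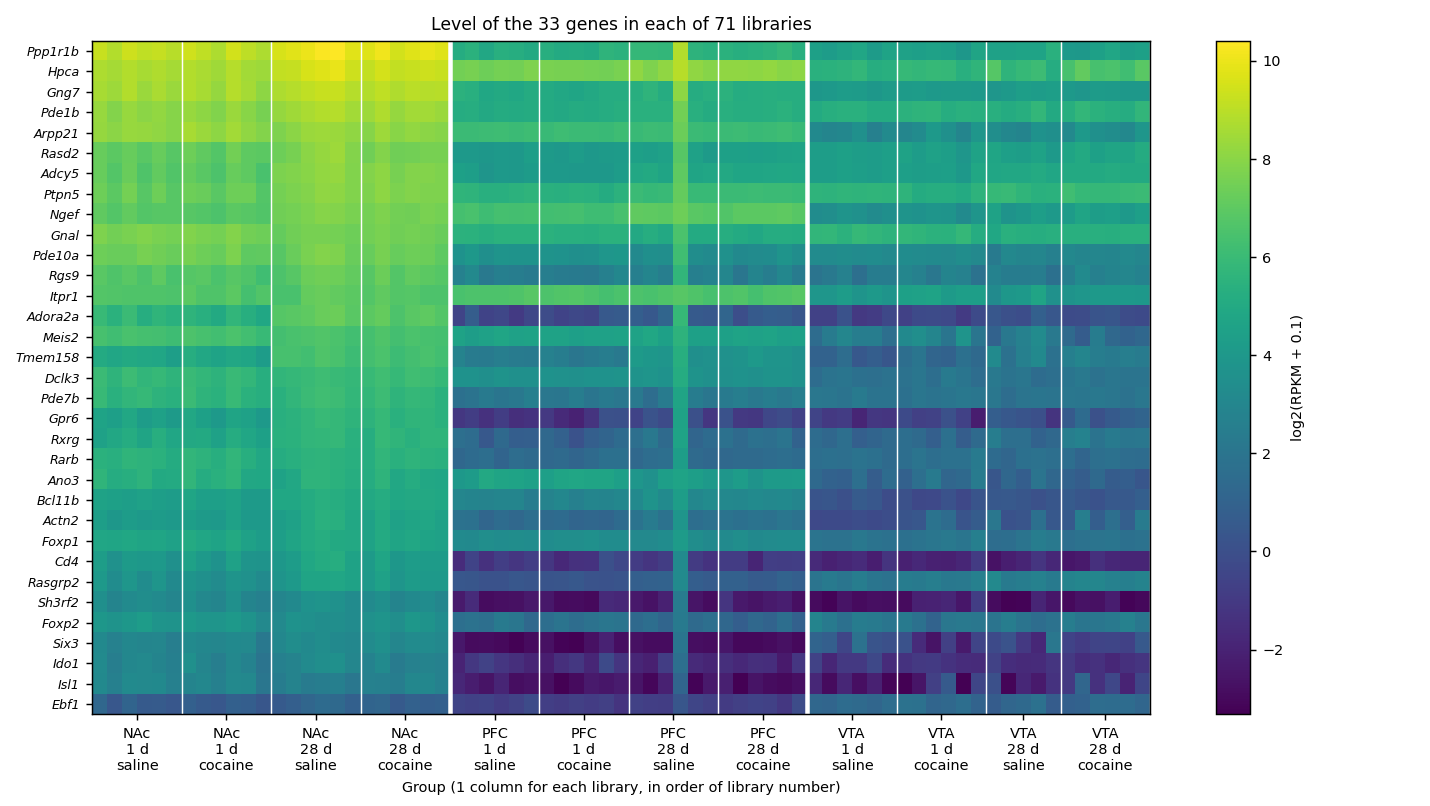
Level of the 33 genes as log2(RPKM + 0.1) in each of the 71 libraries, grouped by region, days of abstinence and treatment, with genes in the order of their NAc median. The NAc libraries are bright for nearly all genes and PFC saline library 4 at 28 days forms a bright column among the PFC libraries.

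In the NAc at 1 day of abstinence, the question was whether cocaine had changed medium spiny neuron genes in the region where these neurons are the main cell type. None of the 33 members was called in either direction, and none had an unadjusted p under 0.05, where 0.0126% of 15878 genes tested were called (2 genes) and 4.01% had an unadjusted p under 0.05. The median log2 fold change of the members was -0.01, that of all genes 0.00, and 15 members were above 0 and 18 below.

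The pathway's central genes had similar values in both groups. Ppp1r1b was at 457, 566 and 649 RPKM (lowest, median, highest) in the saline libraries and at 420.1, 537 and 699.6 RPKM in the cocaine libraries, with a fitted difference of 0.00 (SE 0.134). Pde10a (chr17:8718237-9179513) was at 152, 163 and 194 RPKM in saline and 129, 156 and 209 RPKM in cocaine mice, and the difference was -0.01 (SE 0.126). Saline and cocaine libraries overlapped over most of their range for both. Rgs9 (chr11:109086669-109159443) was at 88.9, 109 and 129 RPKM against 74.6, 106 and 119 RPKM, a difference of -0.07 (SE 0.114).

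Adora2a (chr10:74779688-74797533, plus strand) had the smallest p of the members at 1 day. It was at 38.0, 47.0 and 65.6 RPKM in the saline libraries and at 28.9, 40.1 and 52.1 RPKM in the cocaine libraries, with a log2 fold change of -0.29 (SE 0.154, adjusted p = 1.00, edgeR). The highest values were saline and the lowest cocaine, with overlap between. Next came Ngef, at 106, 115 and 139 RPKM in saline and 94.1, 111 and 125 RPKM in cocaine mice (-0.10, SE 0.0807, adjusted p = 1.00), and Arpp21, at 240.5, 292 and 318 RPKM in saline and 230.4, 301 and 385 RPKM in cocaine mice (0.14, SE 0.122, adjusted p = 1.00). Without cocaine library 1 the difference of Arpp21 was 0.06 (SE 0.114).

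The transcription factors and Itpr1 missed the test as well. Bcl11b (chr12:109148613-109241812) was at 19.3, 21.4 and 23.7 RPKM in saline and 17.9, 21.4 and 26.5 RPKM in cocaine mice (0.01, SE 0.104), and Foxp1 (chr6:98875332-99216526) at 23.1, 26.5 and 29.1 RPKM against 18.9, 26.7 and 33.6 RPKM (0.04, SE 0.120). Isl1 (chr13:117088478-117099896, minus strand) was at 6.19, 8.83 and 9.53 RPKM in saline and 4.02, 7.61 and 8.73 RPKM in cocaine mice (-0.18, SE 0.163). Its lowest value was in cocaine library 6. Itpr1 (chr6:108163112-108501103) was at 95.2, 100.1 and 107 RPKM against 83.2, 102 and 123 RPKM (0.08, SE 0.0987).

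Cocaine library 6 held the lowest NAc value at 1 day for 26 of the 33 members. The members summed to 2742 RPKM there, against 2974 to 4273 RPKM in the other cocaine and 3095 to 4010 RPKM in the saline libraries. The 8 markers of cortical excitatory neurons summed to 292 RPKM in that library, the highest of the 12 NAc libraries at 1 day, where the lowest was at 9.52. Cocaine library 5 had 9.80 RPKM of these markers, with the members at 3326 RPKM. The part of neighboring tissue in this was not tested. Without cocaine library 6 the median of the members was 0.05. No member was called without any 1 library, and at most 1 had an unadjusted p under 0.05.

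At 28 days of abstinence most members of the NAc had a fold change below 0 after cocaine, and none passed the test. None of 33 was called, where 0% of 16295 genes were, and 5 had an unadjusted p under 0.05 (3 lower, 2 higher), or 15.2% of the members against 6.76% of all genes tested (3.42% lower and 3.34% higher). The median log2 fold change was -0.14 over the members and 0.00 over all genes, and 27 of the 33 members were below 0 against 48.0% of all genes. Some marker lists of other cells had medians below 0 too. The median was -0.37 for cortical excitatory neurons, with 7 of 8 below 0 and 0 at an unadjusted p under 0.05. It was -0.16 for endothelium (4 of 4, 1 at that level) and -0.12 for oligodendrocytes (6 of 6, 2 at that level). It was -0.11 for midbrain dopamine neurons and choroid plexus, -0.04 for neurons and -0.02 for microglia. Medians were above 0 for thalamus (0.29, 2 of 3 above 0), astrocytes (0.08, 5 of 6) and interneurons (0.01, 3 of 6). The part of these cells in the members' values was not tested. DESeq2 called none of the members either, with 6 at an unadjusted p under 0.05.

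Isl1 had the smallest p of the members, with a fold change above 0. Its saline libraries were at 4.19, 5.41 and 6.86 RPKM (lowest, median, highest) and its cocaine libraries at 5.48, 6.46 and 8.12 RPKM, a log2 fold change of 0.30 (SE 0.115, unadjusted p = 0.0190, adjusted p = 0.672, edgeR). The groups overlapped between 5.48 and 6.86 RPKM. Foxp2, a forkhead gene, was the other member above 0 at an unadjusted p under 0.05, at 8.85, 10.7 and 12.5 RPKM in saline and 10.3, 12.7 and 15.6 RPKM in cocaine mice (0.24, SE 0.107, adjusted p = 0.723). Isl1 and Foxp2 are transcription factors, and Foxp2 is best known for its part in vocal learning.

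Rasd2 (chr8:77737843-77748012, plus strand) had the smallest p of the members below 0. Its saline libraries were at 167, 243 and 338 RPKM and its cocaine libraries at 172, 186 and 236 RPKM, a log2 fold change of -0.39 (SE 0.157, unadjusted p = 0.0252, adjusted p = 0.690). The lowest value of all 12 was saline library 1 and the highest saline library 5. Cd4 (chr6:124814710-124838239) was at 15.2, 26.8 and 37.9 RPKM in saline and 15.4, 18.6 and 26.9 RPKM in cocaine mice (-0.48, SE 0.207, adjusted p = 0.696), again with saline libraries at both ends. Ido1 was at 6.24, 8.54 and 11.8 RPKM against 5.17, 6.58 and 9.31 RPKM (-0.38, SE 0.174, adjusted p = 0.723).

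The other members with given levels were below 0 and under 2 SE. Ppp1r1b was at 771, 970.1 and 1362 RPKM in saline and 714, 868.5 and 1093 RPKM in cocaine mice (-0.22, SE 0.144, adjusted p = 0.812). Pde10a was at 115, 179 and 233 RPKM against 129, 154 and 193.5 RPKM (-0.20, SE 0.158), and Rgs9 at 93.6, 148 and 173 RPKM against 107, 119 and 161 RPKM (-0.17, SE 0.153). Adora2a, at 111, 124 and 161 RPKM against 95.3, 122 and 145 RPKM (-0.15, SE 0.115), had nearly equal medians. Bcl11b was at 29.0, 33.7 and 41.0 RPKM against 28.4, 30.7 and 36.2 RPKM (-0.14, SE 0.0958). Foxp1 was at 21.03, 31.5 and 37.4 RPKM against 23.2, 25.4 and 33.2 RPKM (-0.17, SE 0.137), and Itpr1 at 87.7, 132 and 156 RPKM against 94.2, 106 and 134 RPKM (-0.21, SE 0.150). In each, the saline libraries reached higher than the cocaine libraries.

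By role, the log2 fold changes at 28 days were below 0 for the 3 receptors (from -0.48 for Cd4 to -0.05 for Gpr6), the 3 phosphodiesterases (from -0.20 for Pde10a to -0.14 for Pde7b), the 4 regulators of G proteins and Ras-like proteins (from -0.39 for Rasd2 to -0.14 for Ngef, with Rasgrp2 at -0.35), the phosphatase and phosphoprotein genes (Ppp1r1b at -0.22, Arpp21 at -0.11, Ptpn5 at -0.08) and the 3 calcium genes (Hpca at -0.24, Itpr1 at -0.21, Ano3 at -0.18). Of the G protein and cyclase genes, Gnal was at 0.02, Gng7 at -0.12 and Adcy5 at -0.13. The transcription factors were split. Isl1 and Foxp2 were the highest, Six3 and the retinoid receptor gene Rarb both were at 0.04, and Rxrg (its partner receptor, at -0.02), Meis2 (-0.05), Bcl11b, Foxp1 and Ebf1 (-0.18) were below 0. Among the others, Dclk3 was at 0.10, and Tmem158 (-0.06), Sh3rf2 (-0.24), Actn2 (-0.27) and Ido1 were below 0. Apart from the 5 members at an unadjusted p under 0.05, these are values that missed that level too.

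**Figure D3:**
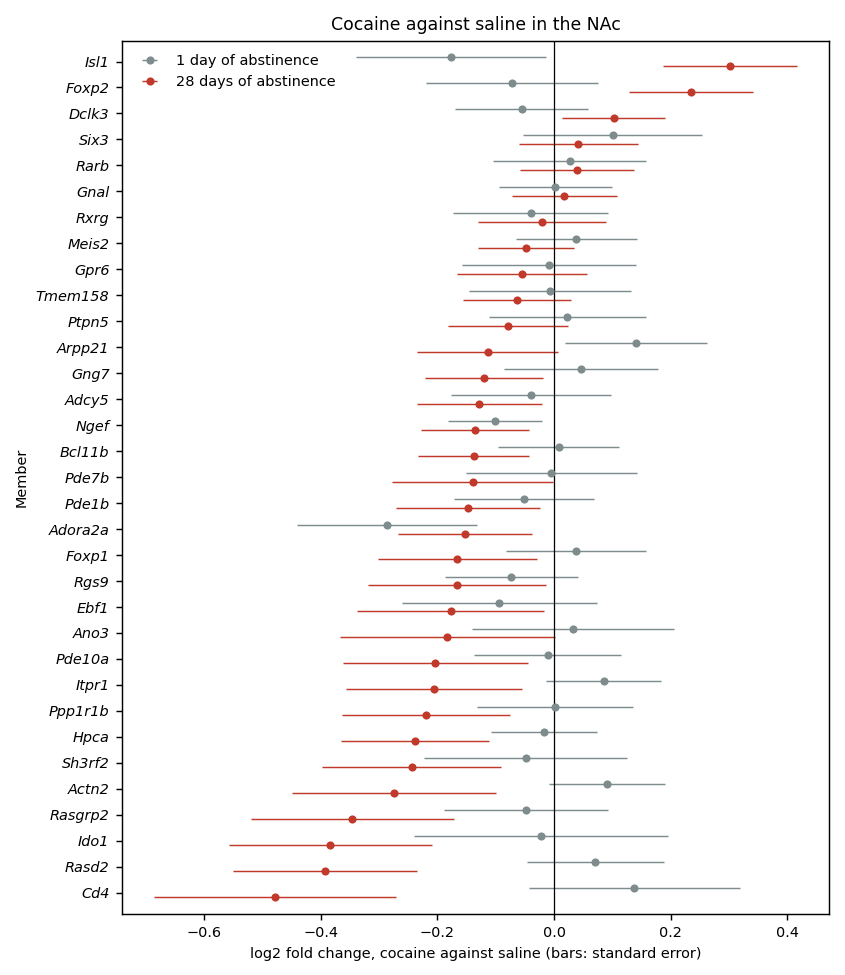
Log2 fold change of each of the 33 genes, cocaine against saline in the NAc, at 1 day (grey) and 28 days (red) of abstinence, with bars of 1 standard error, in the order of the 28-day value. At 28 days 27 of 33 points lie below 0, from -0.48 for Cd4 to 0.30 for Isl1, and no member was called at either time.

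Saline libraries gave both ends of this comparison. Saline library 1 held the lowest NAc value at 28 days for 22 of the 33 members, and saline libraries 4 and 5 the highest for 16 and 10. The members summed to 4100 RPKM in saline library 1 and to 6370 and 6517 RPKM in libraries 4 and 5, against 4217 to 5738 RPKM in the cocaine libraries. Cortical excitatory neuron markers summed to 190 RPKM in saline library 1 and to 26.4 and 42.8 RPKM in libraries 4 and 5. In the cocaine group they were highest, at 217 RPKM, in library 3, where the members were lowest. Other libraries did not keep this order. Saline library 6 had 187 RPKM of these markers with the members at 4854 RPKM. Cocaine library 4 had 12.3 RPKM, the lowest of its group, with the members at 4830 RPKM. The part of other tissue in the members' values was not tested.

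The median of the members without 1 library at a time ran from -0.22 (without cocaine library 2) to -0.08 (without saline library 4). Without saline library 1, 13 members had an unadjusted p under 0.05 and the median was -0.21. The count was 1 without saline library 4 or 5 or without cocaine library 4 or 5, 2 without cocaine library 1, and 3 without saline library 3 or without cocaine library 3 or 6. No member was called in any of these fits. The share of all genes at that level in each fit is not given, so these counts show only how the result depends on single libraries.

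**Figure D4:**
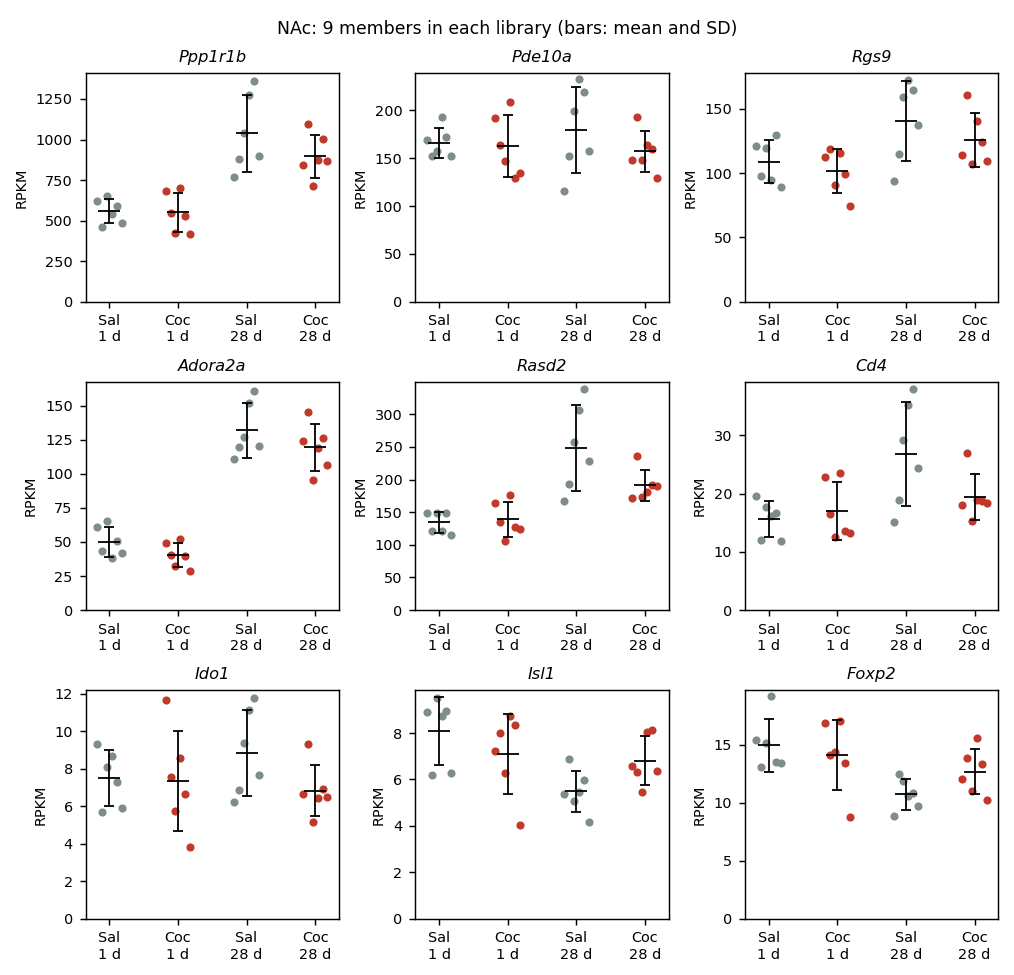
Level in RPKM of 9 members in each NAc library, for saline (Sal) and cocaine (Coc) mice at 1 and 28 days (d), with the mean and SD of each group. Cocaine and saline points overlap in each panel at both times. Adora2a sits between 28.9 and 65.6 RPKM at 1 day and between 95.3 and 161 RPKM at 28 days.

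A fit over the 24 NAc libraries tested whether the cocaine effect differed between 28 days and 1 day. No member was called, where 0.0181% of 16612 genes were, and 2 had an unadjusted p under 0.05 (5.27% of all genes), Isl1 at 0.49 (SE 0.210, adjusted p = 0.932) and Rasd2 at -0.45 (SE 0.213, adjusted p = 0.934). Cd4 followed at -0.60 (SE 0.297, adjusted p = 0.952). Without 1 library at a time this count ran from 0 (without cocaine library 4 at 28 days) to 5 (without saline library 1 at 28 days). For Isl1 the cocaine effect was -0.18 at 1 day and 0.30 at 28 days, and for Rasd2 0.07 and -0.39.

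The NAc levels themselves differed between the 2 tables of saline mice. The 28-day mean was above the 1-day mean for 28 of the 33 members, with a median ratio of 1.29 where that of 14587 genes at 0.5 RPKM or more was 0.949. Time, age and table cannot be told apart here, and 12 members had groups that did not overlap, where 42.8% of all those genes had. Tmem158 had the highest ratio, at 2.91, then Adora2a at 2.64 and Gpr6 at 2.20. Both receptors belong to indirect-pathway neurons. Isl1 at 0.678 and Foxp2 at 0.718 had the lowest ratios. The ratios of Six3, of indirect-pathway neurons, and Ebf1, of direct-pathway neurons, were close to each other and both below the median of the members. A difference between the pathways was not tested.

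Genes beside the 33 were taken from lists of the same system. Of 19 other striatal projection neuron genes, none was called in the NAc at either time, with medians of -0.01 at 1 day and -0.03 at 28 days. An unadjusted p under 0.05 was found for 1 (5.3%) at 1 day and 4 (21.1%, 3 higher and 1 lower) at 28 days. Over all genes tested these shares were 4.01% and 6.76%. The 32 other genes of the cAMP and protein kinase A pathway were those of G proteins, cyclases, phosphodiesterases, kinase subunits and phosphatases, with Cdk5, Cdk5r1 and Creb1. None of them was called in the NAc, with medians of -0.02 at 1 day and 0.03 at 28 days. An unadjusted p under 0.05 was found for 1 (3.1%) at 1 day and 5 (15.6%, 3 higher and 2 lower) at 28 days. In saline mice at 28 days, 18 of the 19 striatal genes were called higher in the NAc than in the VTA, as against 17 higher and 9 lower of the 32 pathway genes, where 29.8% of all genes tested were called higher and 62.5% called in either direction.

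In the VTA the members are read as a share of tissue, since medium spiny neurons have their cell bodies in the striatum. At 1 day 28 of the 33 passed the level filter, and Cd4, Gpr6, Ido1, Isl1 and Sh3rf2 did not. None was called, where 0.0665% of 15042 genes were (10 genes), and edgeR on the reads recovered from the RPKM called none either, with 7 at an unadjusted p under 0.05. In limma 8 had an unadjusted p under 0.05 (6 higher, 2 lower), or 28.6% of those tested, beside 15.7% of all genes tested (11.2% higher and 4.57% lower). Their median log2 fold change was 0.13, that of all genes 0.03, on the log2(RPKM + 0.1) scale, which understates changes of low genes.

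Itpr1 had the smallest p of the members. It was at 13.7, 14.99 and 18.9 RPKM in the saline and 17.7, 21.5 and 24.9 RPKM in the cocaine libraries, a log2 fold change of 0.47 (SE 0.0946, adjusted p = 0.0766, limma). Saline library 3 alone reached into the cocaine range. Without that library Itpr1 passed the test at 0.53 (SE 0.0879, adjusted p = 0.0404). In the other fits that left out 1 library, of 12 in all, it was not called. This library was singled out here after its value was seen.

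Actn2 (chr13:12361693-12433027) was at 0.714, 0.756 and 0.852 RPKM in saline and 1.08, 1.37 and 3.61 RPKM in cocaine mice, so the groups did not overlap (1.03, SE 0.269, adjusted p = 0.122). It was the only member without overlap, higher after cocaine, where 1.3% of all genes tested were without overlap in that direction. Between 53 and 69 reads in saline and 82 and 259 in cocaine libraries stand behind these values. Six3 (chr17:86012948-86031153) had a fold change below 0, at 0.640, 1.39 and 3.46 RPKM in saline and 0.0632, 0.358 and 0.982 RPKM in cocaine mice (-1.90, SE 0.497, adjusted p = 0.122). Ptpn5 was at 46.9, 49.1 and 51.1 RPKM against 33.4, 37.8 and 48.2 RPKM (-0.31, SE 0.0873, adjusted p = 0.139). The other members at an unadjusted p under 0.05 were Tmem158 at 0.63, Rasgrp2 at 0.29, Hpca at 0.26 and Pde1b at 0.23.

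Markers of other cells differed in their summed levels in the same comparison. The 8 markers of midbrain dopamine neurons summed to between 1080 and 2467 RPKM in the saline and between 648 and 1526 RPKM in the cocaine libraries, and all 7 of them that were tested were below 0, with a median of -0.58 and 5 at an unadjusted p under 0.05. The markers of cortical excitatory neurons summed to between 9.50 and 37.7 RPKM in saline and between 16.0 and 82.9 RPKM in cocaine libraries, and all 5 tested were above 0. The 6 microglia markers summed to between 100.4 and 151 RPKM in saline and between 65.3 and 109 RPKM in cocaine libraries, all 6 were below 0, with a median of -0.49, and 5 had an unadjusted p under 0.05. The part of these cells and of where the punch fell in the members' values was not tested.

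**Figure D5:**
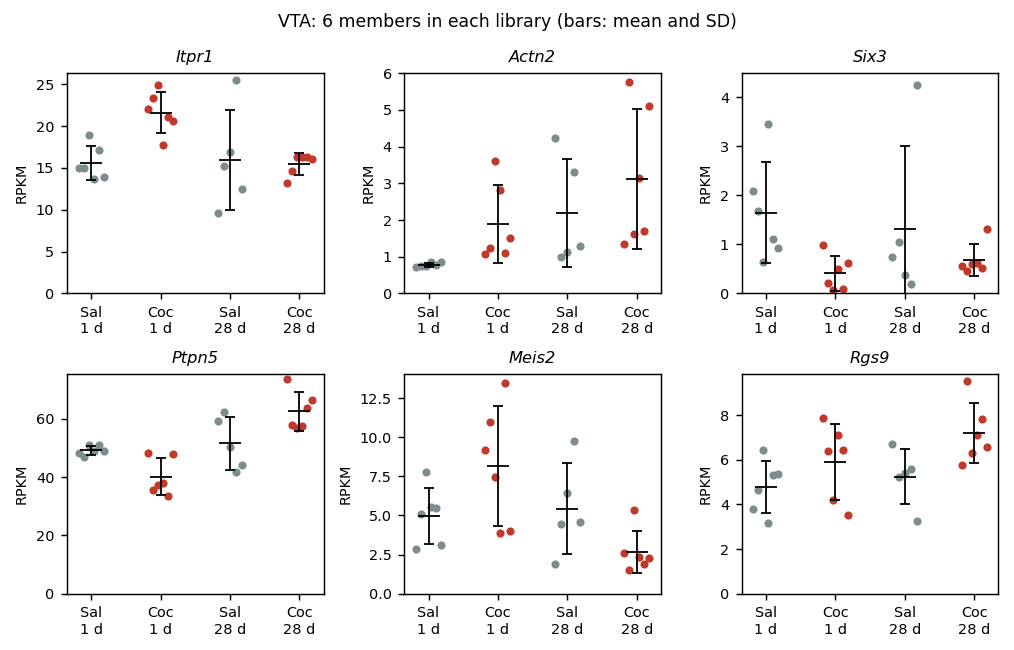
Level in RPKM of 6 members in each VTA library, for saline (Sal) and cocaine (Coc) mice at 1 and 28 days (d), with the mean and SD of each group. At 1 day Actn2 is above 1.07 RPKM in the 6 cocaine libraries and below 0.853 in the 6 saline libraries, and the 28-day groups overlap in each panel.

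At 28 days in the VTA 32 of the 33 members (all but Sh3rf2) were tested and none was called, where 0% of 16937 genes were, and DESeq2 called none either, with 9 at an unadjusted p under 0.05. In edgeR an unadjusted p under 0.05 was found for 7 (5 higher, 2 lower), or 21.9%, beside 11.5% of all genes tested (5.08% higher and 6.39% lower), and the median was 0.12 over the members and -0.03 over all genes. Meis2 was at 1.93, 4.56 and 9.75 RPKM in saline and 1.51, 2.33 and 5.34 RPKM in cocaine mice (-1.02, SE 0.382, adjusted p = 0.400, edgeR). Rgs9 was at 3.28, 5.40 and 6.71 RPKM against 5.78, 6.86 and 9.55 RPKM (0.44, SE 0.169, adjusted p = 0.401). The other members at an unadjusted p under 0.05 were Hpca at 0.62, Rxrg at 0.60, Rasd2 at 0.35, Ptpn5 at 0.27 and Ppp1r1b at -0.41. Itpr1 and Actn2, which led at 1 day, were at -0.05 and 0.50, and Ptpn5 had been below 0 at 1 day. The count of 7 depended on single libraries, with 14 without saline library 1, 2 without saline library 5, 4 without saline library 3 or cocaine library 1, and 3 without cocaine library 2 or 6, while the median stayed between 0.12 and 0.19. For these fits the share of all genes is not given, so the counts are not read as a result about the members.

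Markers of other cells had these values in the VTA at 28 days. The dopamine neuron markers summed to between 646 and 2577 RPKM in the saline and between 828 and 2409 RPKM in the cocaine libraries, with a median log2 fold change of 0.12 and none of 8 at an unadjusted p under 0.05. Oligodendrocyte, endothelium and microglia markers were all below 0. Their medians were -0.44 for oligodendrocytes (6 genes, 3 at an unadjusted p under 0.05), -0.49 for endothelium (4 genes, 2) and -0.34 for microglia (6 genes, 1). Of 6 astrocyte markers 4 were below 0 and 2 above, with a median of -0.02. The 1 astrocyte marker at an unadjusted p under 0.05 was higher after cocaine. Cortical excitatory neuron markers had a median of -0.21 (4 of 8 below 0, 3 at that level, all lower). Choroid plexus markers had -1.17 (3 of 4 below 0, 1 lower and 1 higher at that level). Interneuron markers had 0.05 (3 of 6 below 0, 1 lower and 1 higher at that level). Neuron and thalamus markers had 0.08 and 0.02, with 0 at that level. The part of these cells in the members' values was not tested.

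In the PFC at 1 day 27 members were tested, without Cd4, Gpr6, Ido1, Isl1, Sh3rf2 and Six3, whose levels were under the filter. None was called and none had an unadjusted p under 0.05, where 0.00693% (1 gene) and 3.78% of 14427 genes did, and the median was -0.02 against -0.01 over all genes. Without 1 library at a time, at most 2 members had an unadjusted p under 0.05 (without cocaine library 6). Actn2 was at 2.22, 2.89 and 3.56 RPKM in saline and 2.11, 2.41 and 2.68 RPKM in cocaine mice (-0.24, SE 0.116, adjusted p = 0.913, limma). Ebf1 was at 0.446, 0.558 and 0.766 RPKM against 0.318, 0.463 and 0.506 RPKM (-0.30, SE 0.152, adjusted p = 0.913). Cocaine and saline libraries overlapped for both.

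At 28 days the PFC comparison rested on saline library 4. With it, none of 31 members tested (all but Isl1 and Six3) was called, where 0% of 16340 genes were, 9 had an unadjusted p under 0.05, all lower, beside 5.66% of all genes (2.97% lower), and the median was -0.62. The 9 were Adora2a, Gpr6, Sh3rf2, Cd4, Ppp1r1b, Rgs9, Gng7, Foxp2 and Bcl11b, from -2.96 to -0.43. Without it the median was 0.01 and 2 members had an unadjusted p under 0.05, Ptpn5 at 0.10 (SE 0.0404) and Bcl11b at -0.21 (SE 0.0945), each with an adjusted p of 0.967. Without another saline library the count at an unadjusted p under 0.05 was between 12 and 18, the highest without saline library 6, and without a cocaine library 6 or 7. These counts too are given without the share of all genes in each fit.

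Adora2a had the smallest p with this library. It was at 1.26, 1.504 and 58.9 RPKM in the saline libraries (lowest, median, highest) and 0.893, 1.45 and 2.15 RPKM in the cocaine libraries, and its log2 fold change was -2.96 (SE 0.994, adjusted p = 0.842, edgeR) with and -0.07 (SE 0.196, adjusted p = 0.989) without library 4. Gpr6 was at 0.355, 0.855 and 24.1 RPKM against 0.370, 0.601 and 1.01 RPKM, with -2.93 (SE 0.987, adjusted p = 0.842) and -0.26 (SE 0.294, adjusted p = 0.969). Outside library 4, both genes overlapped between cocaine and saline.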

How the data were processed

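The authors sequenced RNA from punches of the NAc, VTA and PFC and aligned reads to mm9 with STAR 2.4.1d, per the study's methods and the submitters' processing notes. The deposited NAc tables and the 28-day VTA and PFC tables hold raw read counts per gene, made by the authors. The 1-day VTA and PFC tables hold RPKM, normalized by the authors to gene length and reads on genes. How reads were counted was not given in the sources used here. The files also hold the authors' own fold changes and q-values, which were not used, and 30 columns of no sample listed here (food groups), not used.

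RPKM of the count tables was computed here with gene lengths recovered from the steps of the deposited RPKM, which also gave back whole reads for 100% of genes. Counts were tested with edgeR 4.0.16 (quasi-likelihood, TMM, filterByExpr with a minimum of 10 reads), and RPKM with limma 3.58.1 on log2(RPKM + 0.1), at a mean of 0.5 RPKM or more, with a trend of the variance. P-values were adjusted over all genes tested, and the SE of edgeR's fold changes was derived from the F statistic. Regions were compared over saline libraries at 28 days. Alternatives were DESeq2 1.42.0, its size factors, other filters and pseudocounts, a replicate block, and fits without each library in turn. Counts of members at an unadjusted p under 0.05 in these alternatives are given without the share of all genes. The fits and the recovery of reads were tested on simulated data. The 33 members and the lists were chosen with earlier results of these data known. Per-library values were given for 8 members chosen for their roles and, in each comparison, for the 3 (NAc) or 2 (VTA, PFC) members with the smallest unadjusted p; Ido1, Foxp2, Six3, Ptpn5 and the members leading the region comparisons were added after their values were seen.

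None of 175 pairs of libraries within a group held identical values.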

Additional observations from a re-analysis of the deposited data

Results flagged for a closer look

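A library lay far from the others of its group in 7 of 68 sets of 5 or 6 values examined, and chance alone gives about 1 in 20 among independent sets. These sets were not independent, since many share libraries, and part of the genes were taken for their small p. The count of 7 therefore cannot be set against that rate. PFC saline library 4 at 28 days gave 3 of the 7: the 33 members summed to 2840.0 RPKM there and to at most 984 RPKM in the other libraries, Adora2a was at 58.9 RPKM and Gpr6 at 24.1 RPKM. That this library was high in these genes was known before the sets were examined.

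NAc cocaine library 2 at 28 days gave 3 more, each as the highest of its group: Rasd2 at 236 RPKM (next 192), Itpr1 at 134 RPKM (next 109) and Cd4 at 26.9 RPKM (next 18.9). Without that library the median log2 fold change of the members in the NAc at 28 days was -0.22 in place of -0.14.

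In the VTA at 28 days, Meis2 was at 5.34 RPKM in cocaine library 3, where the next highest was at 2.61. Without that library the log2 fold change of Meis2 was -1.34 in place of -1.02. Without saline library 4, which held the highest saline value at 9.75 RPKM, it was -0.71.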

How the results depend on the processing

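Of 183 refits of the counts of members called, 181 stayed within 1.5 times the reported count. In the VTA at 1 day, where none was called, the count was 1 (Itpr1, at 0.47, SE 0.0611, adjusted p = 0.0315, limma) with the replicate block and ranged from 0 to 1 over the fits that left out a library, with 1 without saline replicate 3. The block changed no other call, and in the NAc and PFC at 1 day it left 0 members called. Cocaine and saline libraries of 1 number shared only that number: the deviations of same-numbered libraries from their group means correlated at over 0.1 in 3 of 6 pairs in the NAc, 4 of 6 in the VTA and 1 of 6 in the PFC, and 2, 2 and 0 of 6 matched their own number best. The 28-day columns carry no replicate number, so no paired fit was made there. The block raised the number of all genes called in the VTA at 1 day from 10 to 60. There 28 genes were called by limma without a trend of the variance, added after the data were seen, and 55 by edgeR on recovered reads. DESeq2 called 21 genes in place of 2 in the NAc at 1 day, 20 in place of 0 at 28 days and 83 in place of 0 in the VTA at 28 days, none of them members. Between regions DESeq2 called 28 members in each NAc comparison, since it gave Adora2a, Gpr6, Isl1 and Six3 no p.

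Between PFC and VTA, Isl1 was at -3.72 and Rgs9 at -0.073 in the cocaine libraries, against 0.59 and 1.57 in saline. The saline values include PFC saline replicate 4, and without it Rgs9 was at 0.43 (SE 0.186). Isl1 ranged from -2.14 (without PFC saline replicate 4) to 1.54 (without VTA saline replicate 1). Of 800 refits of the members named, 793 kept direction and, where there was an adjusted p, side of the threshold. Refits without an adjusted p were counted as kept when their value lay within 1 SE of the main value. With 5 or 6 libraries a group and a median SE of 0.13 among members in the NAc at 1 day, small differences could not be resolved; levels under 1 RPKM in the VTA and PFC rest on few reads, such as 53 to 69 for Actn2 in saline VTA at 1 day.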
